A study of Mus musculus with 3 samples.

Results

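The annexins analysed here were Anxa1, Anxa2, Anxa3, Anxa4, Anxa5, Anxa6, Anxa7 and Anxa11, chosen by gene symbol in the GENCODE M21 annotation of the mouse genome (GRCm38). All 8 genes had rows in the mRNA table, out of 15844 genes listed there. The table gave reads for 48 of their 53 annotated transcripts, out of 56651 transcripts in all. Apoptotic bodies (ABs) are the membrane-bound fragments that dying cells shed, and the study sequenced the RNA of ABs from cells at 3 steps of osteoclast formation. BMM-ABs came from bone marrow macrophages of C57BL/6 mice at post-natal week 11, grown in M-CSF at 50 ng/ml for 72 h after a first culture of 24 h. For pOC-ABs (preosteoclasts) the macrophages were kept with RANKL, the osteoclast-inducing cytokine, at 100 ng/ml and M-CSF at 30 ng/ml for 24 h, and for mOC-ABs (mature osteoclasts) with the same cytokines for 72 h or longer. By the labels every culture then received 500 μM alendronate, a bisphosphonate, for 12 h to start apoptosis. The methods of the study instead name staurosporine and a longer RANKL time for mOCs. They also give a higher M-CSF dose with RANKL and a shorter M-CSF culture before it. The doses and times given here are those of the labels. The sample titles name the parental cells and the series text names their ABs, and the values below were read as those of ABs. No source used here says how many animals went into a culture.

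Each condition was 1 library, so that no difference could be set against a spread between replicates and no test of the conditions was possible. Values are given as RPM, the reads per 1000000 reads of the mRNA table, which held 9100082 reads from BMM-ABs, 7387317 from pOC-ABs and 7705592 from mOC-ABs. Where 3 values follow each other without names, they stand in this order of RANKL time. Ratios carry exact binomial (Clopper-Pearson) 95% intervals that cover counting error only, and 3 reads, the limit that a count of 0 allows, correspond to 0.330, 0.406 and 0.389 RPM. G1 stands for pOC-ABs against BMM-ABs, G2 for mOC-ABs against BMM-ABs and G3 for mOC-ABs against pOC-ABs. The comparisons share libraries and are not independent of each other. The libraries are bulk, and fewer bodies of a kind and less RNA per body cannot be told apart. The macrophage markers (7 of 7 listed) summed to 5725, 2730 and 1786 RPM, and the osteoclast markers (9 of 10 listed) to 345, 581 and 1870. Lyz2 alone had 3170, 1334 and 411 RPM. Csf1r (1085, 357 and 506 RPM) and Cd68 (729, 649 and 656 RPM) did not fall from pOC-ABs to mOC-ABs. Of the 6 macrophage markers with 20 or more reads, 3 were lower past 2-fold in mOC-ABs than in pOC-ABs and 0 higher. Of the 8 such osteoclast markers 7 were higher and 0 lower. Over all genes with 20 or more reads 6.84% were lower and 3.51% higher in this comparison. In G2 5 of these macrophage markers were lower and 0 higher, beside 8.99% and 4.16% of genes. Nfatc1 alone had 282, 375 and 1098 RPM of the osteoclast sum. Acp5, the tartrate-resistant acid phosphatase of osteoclasts, had 88, 292 and 2157 reads, while the osteoclast integrin Itgb3 had 6, 3 and 0. Listed B cell, T cell, stromal and megakaryocyte markers had at most 17 reads in any library and endothelial ones at most 38. The 10 neutrophil and 5 erythroid markers were not analysed here. The macrophage and osteoclast markers thus differed between the same libraries as the annexins, and their part in the annexin ratios was not tested.

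Annexins are cytosolic proteins that bind phospholipid membranes when calcium rises. A conserved core of repeats holds the calcium sites, and a variable N-terminal part binds partners such as S100 proteins. In dying cells phosphatidylserine moves to the outer face of the plasma membrane, where annexin A5 binds it, which is why labelled annexin A5 is the common stain for apoptotic cells and ABs. Annexin mRNA in ABs is a different measurement from annexin protein on them. In bone, annexins are also known from matrix vesicles, and annexin A2 from work on osteoclast formation.

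The 8 genes together had 16839, 16587 and 13750 reads, which was 0.185%, 0.225% and 0.178% of the mRNA reads. Levels of different genes were compared per length, as FPKM added over the transcripts of a gene. Anxa5 was highest in every library at 524, 847 and 626 FPKM, at percentile 99.2 to 99.5 of the protein-coding genes. Anxa2 came next at 440, 312 and 288 FPKM, followed by Anxa4 (103, 197 and 190 FPKM) and Anxa1 (99.3, 160 and 105 FPKM). By summed FPKM this leading order was the same in all 3 libraries. The top place depended on how length was treated, because Anxa5 has short transcripts of 567 and 527 bases that add much FPKM per read. With all reads of a gene divided by the length of its main transcript, Anxa2 led in BMM-ABs (455 against 332 for Anxa5), and Anxa5 led in both others (508 against 377 with pOC-ABs, 367 against 296 with mOC-ABs). By the FPKM of the main transcript alone Anxa2 led in BMM-ABs (395 against 241) and mOC-ABs (258 against 244), Anxa5 led in pOC-ABs (349 against 185), and Anxa1 stood above Anxa4 in BMM-ABs (51.9 against 50.3) and pOC-ABs (90.8 against 82.0). The lower places changed between libraries. Anxa6 went from the fifth place in BMM-ABs (45.7 FPKM) to the seventh (30.3) and the sixth (23.2) later, and Anxa3 from the seventh (32.4) to the sixth (34.1) and the last (6.66). Anxa7 stood at 43.5, 42.7 and 48.5 FPKM, and Anxa11 at 12.8, 17.99 and 16.5.

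None of the 8 annexins passed a 2-fold difference in G1, beside 10.9% of all genes with 20 or more reads over the 3 libraries. Of the genes in this background 4.87% were higher and 6.07% lower. In G2 Anxa3 and Anxa6 passed it, both lower in mOC-ABs, beside 13.2% of genes (4.16% higher, 8.99% lower). In G3 Anxa3 passed it, again lower, beside 10.3% of genes (3.51% higher, 6.84% lower). The median log2 ratio of the 8 genes was 0.23 for G1, 0.16 for G2 and -0.36 for G3, beside -0.02, -0.05 and -0.05 over all genes. The members did not share a direction, since 4 were higher and 4 lower in G1, 5 higher and 3 lower in G2, and 2 higher and 6 lower in G3. With the upper quartile the G1 tally was 6 higher and 2 lower, since Anxa3 and Anxa7, both within counting error of 0, then lay on the other side. Past 1.5-fold were 4 annexins in G1, 4 in G2 and 1 in G3, beside 29.6%, 29.8% and 24.1% of the genes.

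**Figure D1:**
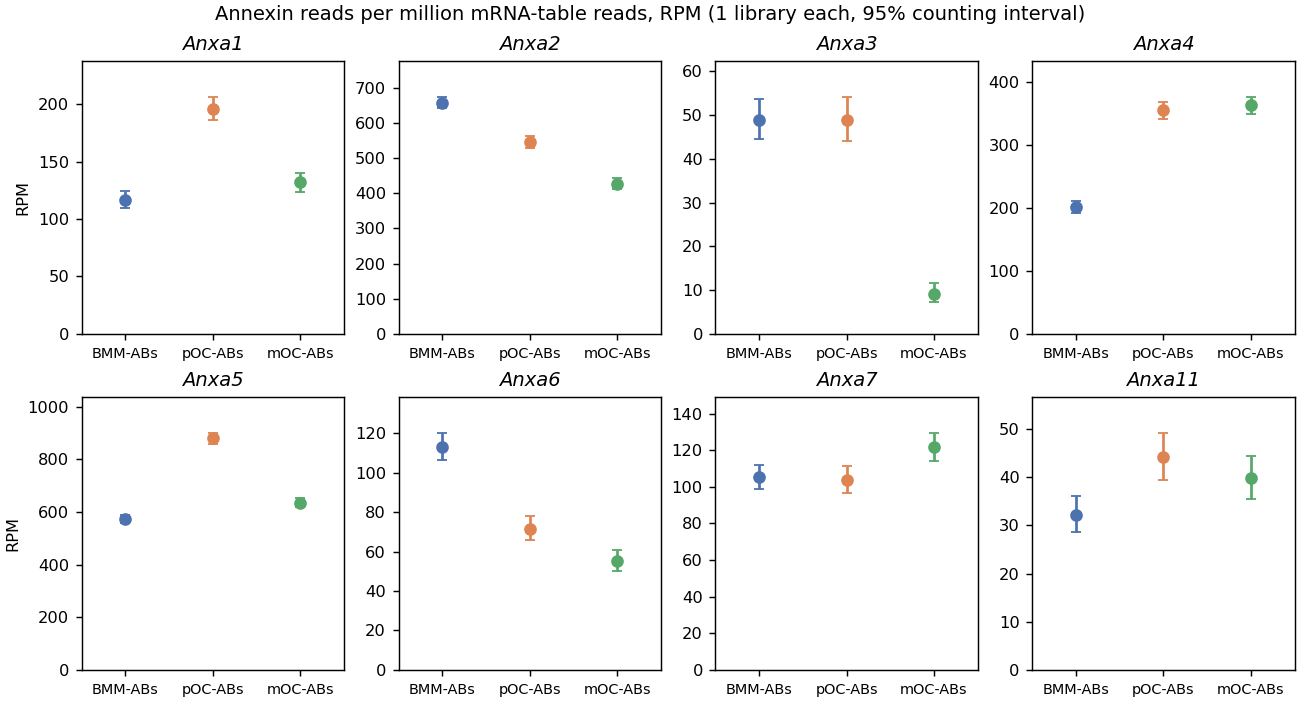
RPM (vertical axes, each starting at 0) for the 8 annexin genes in the 3 libraries, 1 per kind of AB, with points for the value and bars for the 95% counting interval. Anxa3 stands at 48.9 in the first 2 libraries and at 9.21 in mOC-ABs, Anxa4 is high in both RANKL-treated libraries, and Anxa1 and Anxa5 are highest in pOC-ABs.

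The phosphatidylserine-binding annexins known for extracellular roles are described first. Anxa5 (ENSMUSG00000027712, chr3:36448923-36475894, minus strand) encodes the stain protein mentioned above. It had 574, 880 and 636 RPM (5225, 6499 and 4897 reads). The pOC-AB value stood above the other two, at a log2 ratio of 0.62 for G1 (0.56 to 0.67), or 1.53-fold, and of -0.47 for G3 (-0.52 to -0.42). The mOC-ABs lay 0.15 above BMM-ABs on the log2 scale (0.09 to 0.20). Anxa1 (ENSMUSG00000024659, chr19:20373428-20390944, minus strand) encodes a glucocorticoid-induced protein that signals through formyl peptide receptors in the resolution of inflammation. Its 117, 196 and 132 RPM (1063, 1449 and 1016 reads) had the same shape as Anxa5, highest in pOC-ABs. The log2 ratio was 0.75 for G1 (0.63 to 0.86), 0.17 for G2 (0.05 to 0.30) and -0.57 for G3 (-0.69 to -0.46). In G1 Anxa1 stood at percentile 90.9 and Anxa5 at percentile 87.0 of all gene ratios, so that ratios of this size were not rare among genes.

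Anxa2 (ENSMUSG00000032231, chr9:69453620-69491795, plus strand) and Anxa11 are annexins with well-described S100 partners. Annexin A2 forms a heterotetramer with S100A10 that binds actin and membranes at the cell cortex. Anxa2 had 658, 546 and 428 RPM (5988, 4031 and 3296 reads). The order of the libraries was thus the reverse of the RANKL time, with log2 ratios of -0.27 for G1 (-0.33 to -0.21), -0.62 for G2 (-0.68 to -0.56) and -0.35 for G3 (-0.42 to -0.28). Anxa11 (ENSMUSG00000021866, chr14:25842156-25886804, plus strand) encodes an annexin with a long proline-rich N-terminal part that binds S100A6 and ALG-2 (Pdcd6). Anxa11 had 32.2, 44.1 and 39.7 RPM (293, 326 and 306 reads). Its summed FPKM was the lowest of the 8 genes in BMM-ABs and pOC-ABs. By the FPKM of the main transcript Anxa6 was lower in pOC-ABs (10.4 against 13.7). Anxa9, an annexin outside the 8, had a lower summed FPKM in both libraries (11.1 and 9.94). The log2 ratio was 0.45 for G1 (0.22 to 0.69), 0.30 for G2 (0.07 to 0.54) and -0.15 for G3 (-0.38 to 0.08), the last within counting error of 0. These Anxa11 values are uncertain, since the annotated pseudogene Gm2260, identical to an Anxa11 transcript over 657 bases, had 192, 163 and 156 reads of its own. With those reads added, an alternative chosen after seeing the data, the ratios were 0.31, 0.17 and -0.14.

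The annexins known mainly from vesicle traffic and membrane aggregation were Anxa4, Anxa6 and Anxa7. Anxa4 (ENSMUSG00000029994, chr6:86736840-86793584, minus strand) encodes a small annexin that aggregates membranes and vesicles. Its values were 202, 355 and 364 RPM (1839, 2626 and 2801 reads). Both RANKL-treated libraries stood above BMM-ABs, 1.76-fold in G1 (log2 0.81, 0.73 to 0.90) and 1.80-fold in G2 (0.85, 0.76 to 0.93), and were within counting error of each other in G3 (0.03, -0.05 to 0.11). These were the highest of the family ratios in G1 and G2, at percentile 92.3 and 94.4 of all genes. Anxa6 (ENSMUSG00000018340, chr11:54979108-55033445, minus strand) encodes the annexin with a doubled core, found at endosomes and the plasma membrane and in matrix vesicles. It went the other way, with 113, 71.6 and 55.4 RPM (1029, 529 and 427 reads). Anxa6 was 1.58-fold lower in G1 (log2 -0.66, -0.81 to -0.51) and 2.04-fold lower in G2 (-1.03, -1.20 to -0.86), and its G3 ratio was -0.37 (-0.56 to -0.18). The G2 interval spans the 2-fold limit, and with median-of-ratios size factors, the upper quartile or summed FPKM the value was -0.99, -0.95 and -0.98. Anxa7 (ENSMUSG00000021814, chr14:20455260-20480133, minus strand) encodes synexin, described in exocytosis and in fusion of secretory vesicles. It differed least of the 8, with 105, 104 and 121 RPM (957, 766 and 936 reads) and ratios of -0.02 (-0.16 to 0.12), 0.21 (0.08 to 0.34) and 0.23 (0.09 to 0.37).

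Anxa3 (ENSMUSG00000029484, chr5:96793339-96845966, plus strand) encodes an annexin known from the granules of myeloid cells. Its level was 48.9, 48.9 and 9.21 RPM (445, 361 and 71 reads). The first 2 libraries were alike, with a log2 ratio of -0.00098 (-0.21 to 0.20), and the mOC-ABs stood apart from both. The ratio was -2.41 in G2 (-2.79 to -2.04), or 5.31-fold lower, and -2.41 in G3 (-2.80 to -2.04), or 5.30-fold lower. Among all gene ratios of these comparisons Anxa3 stood at percentile 1.71 and 1.13. Among the protein-coding genes Anxa3 went from percentile 77.8 and 79.7 of the FPKM in BMM-ABs and pOC-ABs to 37.6 in mOC-ABs. Its main protein-coding transcripts moved alike, since Anxa3-201 had 360, 273 and 51 reads and Anxa3-205 had 73, 59 and 12, with G2 ratios of -2.58 and -2.36. With every scaling and transcript choice tried the G2 ratio stayed between -2.53 and -2.28.

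**Figure D2:**
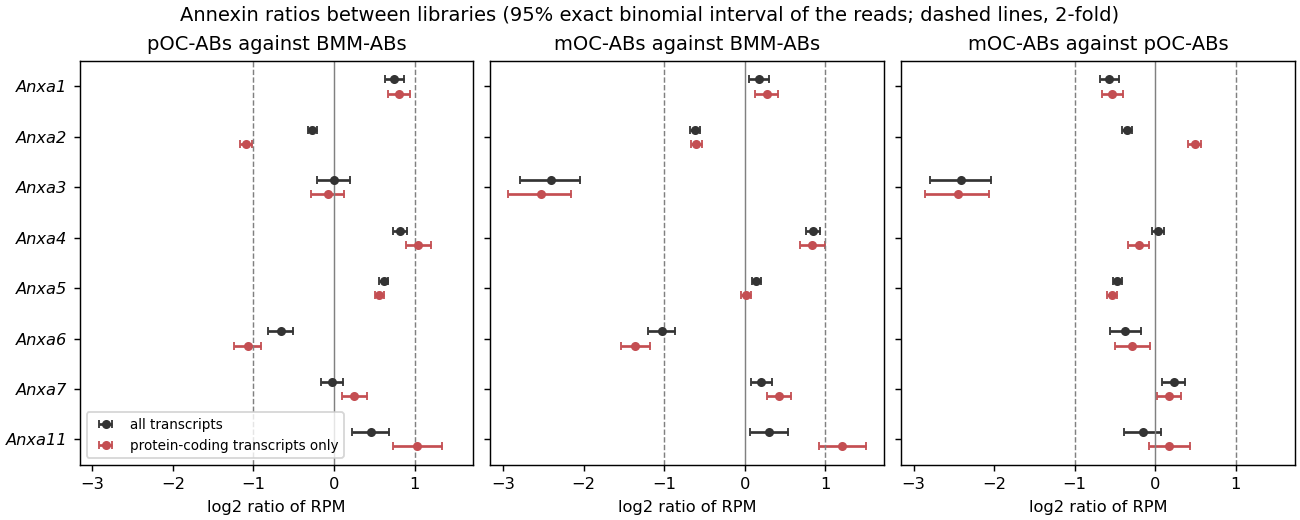
Log2 ratios of RPM (horizontal axes) for the 8 annexins in the 3 comparisons, from all listed transcripts (dark) and from protein-coding transcripts only (red), with exact binomial 95% intervals of the reads and dashed lines at 2-fold. Anxa3 lies past the lower line in both comparisons with mOC-ABs, and for Anxa2 the G1 ratio is -0.27 from all transcripts and -1.09 from protein-coding ones.

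**Figure D3:**
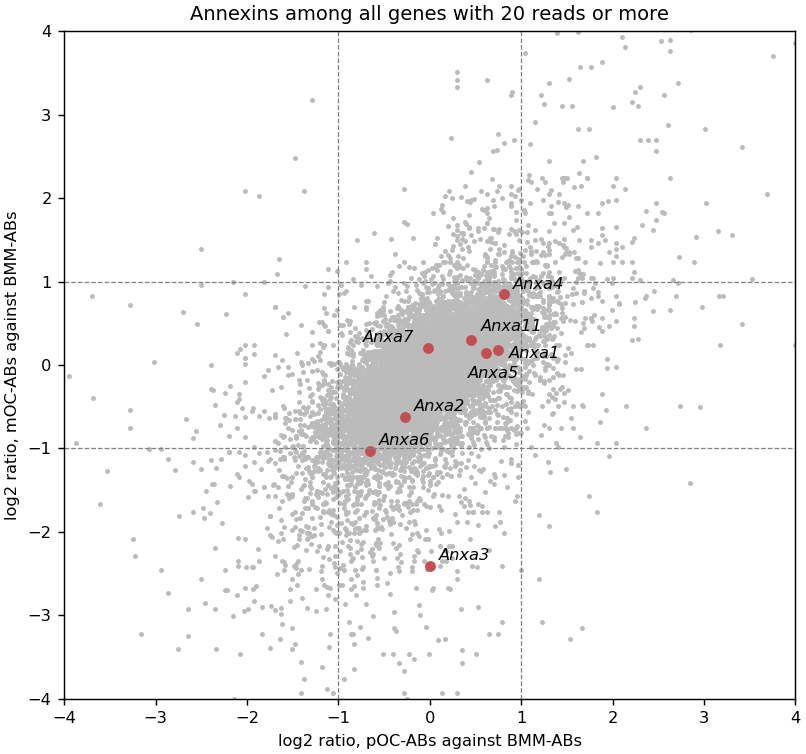
Log2 ratio in G2 (vertical axis) against that in G1 (horizontal axis) for the 12600 genes with 20 or more reads over the 3 libraries and reads in each (grey), with the annexins in red, dashed lines at 2-fold and 61 genes outside the axes. Both axes share the BMM-AB library, so a slope in the cloud is no result. Anxa3 lies near 0 in G1 and at -2.41 in G2, while the other 7 annexins lie inside or at the edge of the dense cloud.

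For some annexins the transcripts of a gene differed more between libraries than the gene sum did. Over all genes, too, transcripts passed 2-fold more often than genes, at 36.6% against 10.9% in G1. The 48 listed transcripts comprised 24 protein-coding, 21 retained-intron, 2 processed and 1 assigned to nonsense-mediated decay (NMD), the pathway that degrades mRNA with an early stop codon. Of the annexin reads 78.1%, 65.4% and 70.8% were on protein-coding transcripts, beside 81.2%, 77.7% and 80.5% of the reads of all genes. Retained-intron transcripts held 13.3%, 22.4% and 13.3% of the annexin reads, beside 5.23%, 4.21% and 3.85% over all genes. Most of these reads were on Anxa2 (762, 2035 and 377) and Anxa5 (967, 1394 and 1240). By gene, Anxa2, Anxa5, Anxa7 and Anxa11 lay above the share over all genes in every library, and Anxa1, Anxa4 and Anxa6 below it. Anxa3 lay below it in BMM-ABs and above it in pOC-ABs and mOC-ABs. The NMD transcript, Anxa4-204, held 7.13%, 9.57% and 13.8%, beside 1.78% to 2.14% for this class over all genes. Of the 31 annexin transcripts with 20 or more reads, 11 passed 2-fold in G1, 13 in G2 and 10 in G3, beside 36.6%, 38.4% and 36.2% of all such transcripts. The annexin transcripts thus passed 2-fold about as often as transcripts in general. Reads in exons shared by transcripts have to be assigned by the counting tool, and how this was done is not given in the sources used here, so transcript values are less certain than gene values. The library protocol selected polyadenylated RNA by the study's methods, and the strand of the reads is not given in the sources used here.

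Segments by which transcripts of Anxa2, Anxa4, Anxa6, Anxa7 and Anxa11 differ from the first transcript of their gene are printed here. They are taken from the GENCODE M21 transcripts (GRCm38), and not all of these transcripts shifted between libraries. The first pair are cassette exons, with the exon in capitals and 12 bases of the neighbouring exons on either side in lower case. The Anxa7 exon (chr14:20467458-20467523, minus strand) lies in intron 5 of Anxa7-201 and adds 66 bases, or 22 codons. The Anxa6 exon (chr11:54987051-54987068, minus strand) lies in intron 20 of Anxa6-201 and adds 18 bases, or 6 codons.
Anxa7-202 cassette exon: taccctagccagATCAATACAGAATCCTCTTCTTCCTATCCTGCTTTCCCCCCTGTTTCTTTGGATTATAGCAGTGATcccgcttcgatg
Anxa6-202 cassette exon: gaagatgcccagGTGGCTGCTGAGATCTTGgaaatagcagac

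The next sequences are borders where a transcript keeps part of an intron, with the 12 exon bases in capitals and the 18 intron bases in lower case. The Anxa2 border (chr9:69479660-69479689, plus strand) joins 1213 bases of intron 4, which begin Anxa2-205, to the following exon. The Anxa11 border (chr14:25872887-25872916, plus strand) opens 1045 bases of intron 4 kept in Anxa11-203, which also keeps 366 bases of intron 6. The Anxa6 border (chr11:54991373-54991402, minus strand) opens the 441 bases of intron 20 in which Anxa6-203 ends.
Anxa2-205 intron to exon: gacatctcccttttacagGAGCTCCCGTCA
Anxa11-203 exon to intron: CCACCAGCCCAGgtaagtgcttgtccaaac
Anxa6-203 exon to intron: GAAGATGCCCAGgtgagactcctgcccatc

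The introns begin with GT at both exon-to-intron borders and end with AG at the intron-to-exon border, the letters at which introns are normally cut out. The last 12 exon bases before intron 20 of Anxa6 are the same in the cassette and border lines, since Anxa6-201 and Anxa6-202 splice from that border and Anxa6-203 reads through it. Anxa4-204 was printed as the beginning of its extra exon in intron 8 of Anxa4-201, up to the stop codon in capitals. This stretch of 63 bases (chr6:86750851-86750913, minus strand) ends at the annotated stop codon, and the whole extra exon has 686 bases.
Anxa4-204 extra exon to stop: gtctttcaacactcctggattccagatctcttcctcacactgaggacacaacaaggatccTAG

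Anxa2 shifted between its main transcripts in pOC-ABs alone among the 3 libraries. The protein-coding Anxa2-201 (ENSMUST00000034756) had 5196, 1973 and 2882 reads. The intron-keeping Anxa2-205 (ENSMUST00000143878) had 713, 2017 and 364 reads. The pOC-ABs were thus the lowest library for Anxa2-201 and the highest for Anxa2-205. As a share of the Anxa2 reads, with Wilson 95% intervals, Anxa2-205 made up 11.9% (11.1 to 12.8), 50.0% (48.5 to 51.6) and 11.0% (10.02 to 12.2). Its log2 ratio was 1.80 in G1 (1.68 to 1.93) and -2.53 in G3 (-2.70 to -2.37), while Anxa2-201 had -1.10 (-1.17 to -1.02) and 0.49 (0.40 to 0.57). The direction of Anxa2 in G3 therefore depended on the transcripts counted, -0.35 from all of them and 0.49 from protein-coding ones. A transcript share moved by 20 points or more in 24.6% of the genes with 100 or more reads in every library and several transcripts in G1, in 24.5% in G2 and in 24% in G3, and Anxa2 moved by 38.1 points in G1, by 0.863 in G2 and by 39.0 in G3.

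Anxa11 moved stepwise over the libraries. The protein-coding Anxa11-201 had 146, 243 and 286 reads, and Anxa11-203, which keeps the introns shown above, had 147, 83 and 3. The remaining listed transcript, the retained-intron Anxa11-204, had 0, 0 and 17 reads and keeps the same 366 bases of intron 6. Retained-intron transcripts together thus held 50.2%, 25.5% and 6.54% of the Anxa11 reads. Anxa11-201 and Anxa11-203 had near-equal reads in BMM-ABs, and in mOC-ABs nearly all reads were on the protein-coding one. Its share was 49.8% (44.1 to 55.5), 74.5% (69.5 to 79.0) and 93.5% (90.1 to 95.7), a move of 49.2 points in G2. The shares leave out the 192, 163 and 156 reads of the pseudogene Gm2260. Whether any of those reads came from Anxa11 was not tested. Anxa11-203 had a log2 ratio of -5.37 in G2 (-7.67 to -3.80), which rests on 3 reads in mOC-ABs. From protein-coding transcripts alone Anxa11 was past 2-fold in G1 (1.04, 0.73 to 1.34) and in G2 (1.21, 0.92 to 1.51), beside 13.4% and 15% of genes counted in this way. In G3, where Anxa3 alone passed, it was 12.6%.

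Anxa6 gained reads on a transcript that ends early. Anxa6-203, which the annotation calls processed and which lacks the exons after intron 20, had 16, 138 and 92 reads. Its share of the Anxa6 reads was 1.55% (0.959 to 2.51), 26.1% (22.5 to 30.0) and 21.5% (17.9 to 25.7). It was 10.6-fold higher in G1 (log2 3.41, 2.66 to 4.26) and 6.79-fold higher in G2 (2.76, 1.99 to 3.63), against the direction of the gene. The largest move of an Anxa6 transcript was 24.5 points for G1, 19.99 for G2 and 4.54 for G3. Of the genes whose shares were compared, 80.6%, 75.5% and 38.0% had a smaller largest move. The full-length transcripts with and without the cassette exon were both lower. Anxa6-202, with the exon, had 455, 202 and 179 reads and Anxa6-201, without it, had 558, 189 and 156. From protein-coding transcripts alone the Anxa6 ratio was -1.07 in G1 (-1.24 to -0.90) and -1.36 in G2 (-1.54 to -1.18), so that the gene passed 2-fold in both comparisons when counted in this way.

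Anxa7-202, the transcript with the 22-codon cassette exon, was listed with reads in mOC-ABs only. It had 0, 0 and 253 reads, and in mOC-ABs it made up 27.0% of the Anxa7 reads (24.3 to 30.0). The longer annexin A7 isoform made with this exon is known from heart, skeletal muscle and brain. For the counts of 0 among 957 and 766 reads, the limit of 3 reads corresponds to a share of 0.313% and 0.392%. The upper Wilson limits were 0.400% and 0.499%. Set against a floor of 3 reads in the other library, the mOC-AB value was 99.6-fold that of BMM-ABs and 80.85-fold that of pOC-ABs. These values leave out the counting error of the 253 reads. The lower counting limits of the log2 ratio were 6.33 in G2 and 6.03 in G3. Anxa7-201, which lacks the exon, had 434, 357 and 287 reads, and Anxa7-207, with a different 5′ end, had 257, 312 and 250. The retained-intron transcript Anxa7-206 was highest in BMM-ABs, with 219, 65 and 106 reads and a G1 ratio of -1.45 (-1.87 to -1.05). The largest move of an Anxa7 transcript was 14.4 points in G1 and 27.0 in both G2 and G3, while the gene value stayed within 0.23 on the log2 scale. The largest move was smaller in 66.5%, 82.7% and 82.9% of the genes whose shares were compared.

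**Figure D4:**
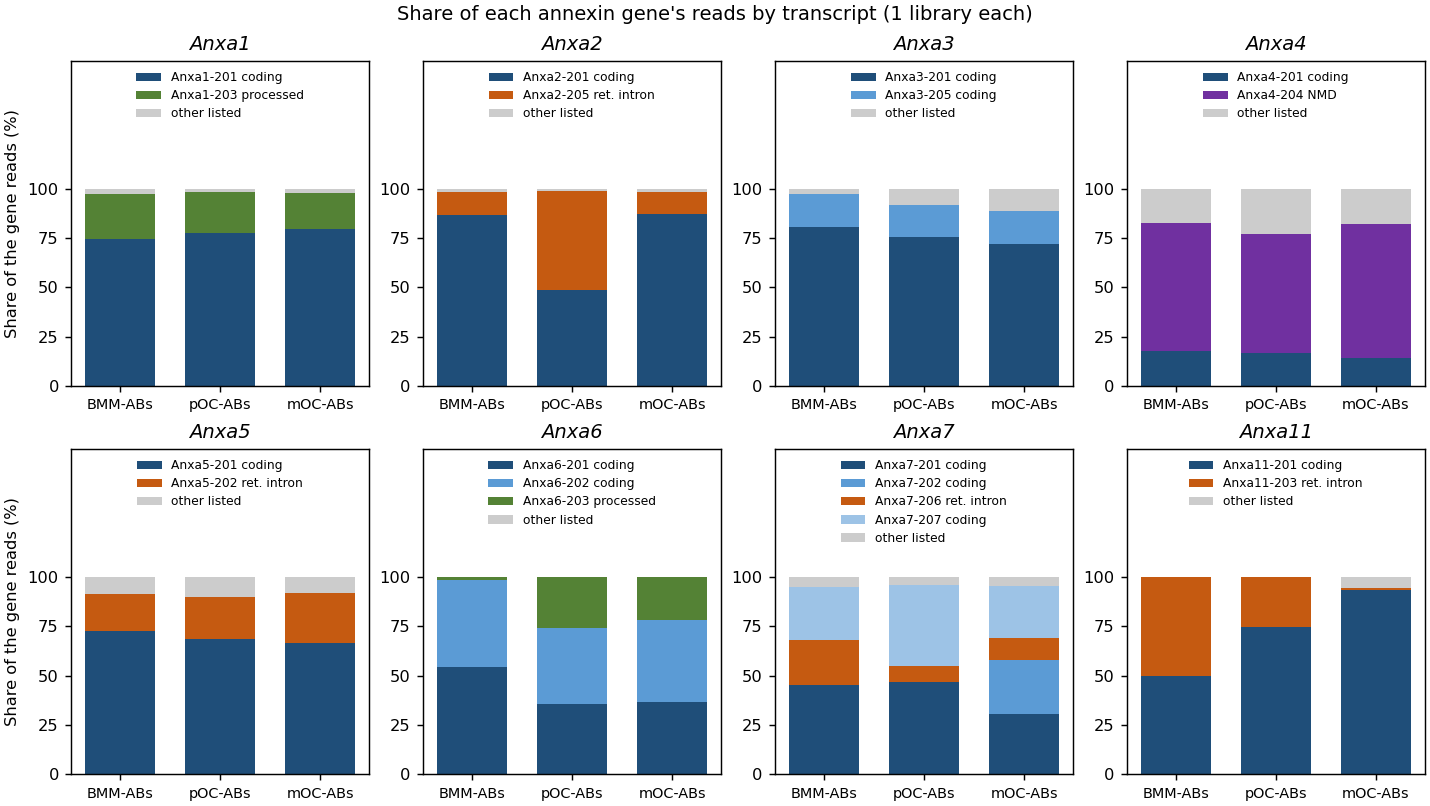
Share of the reads of each annexin gene (vertical axes, percent, stacked to 100) on the transcripts with 10% or more in a library, with the remaining listed transcripts in grey, for the 3 libraries, 1 per kind of AB. Orange marks retained-intron, green processed and purple NMD transcripts, and blues mark protein-coding ones. Anxa2-205 fills 50.0% of the pOC-AB bar, Anxa7-202 appears in the mOC-AB bar alone, and Anxa11-203 shrinks from 50.2% to 0.980%, with Anxa11-204 in the grey part of the mOC-AB bar.

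**Figure D5:**
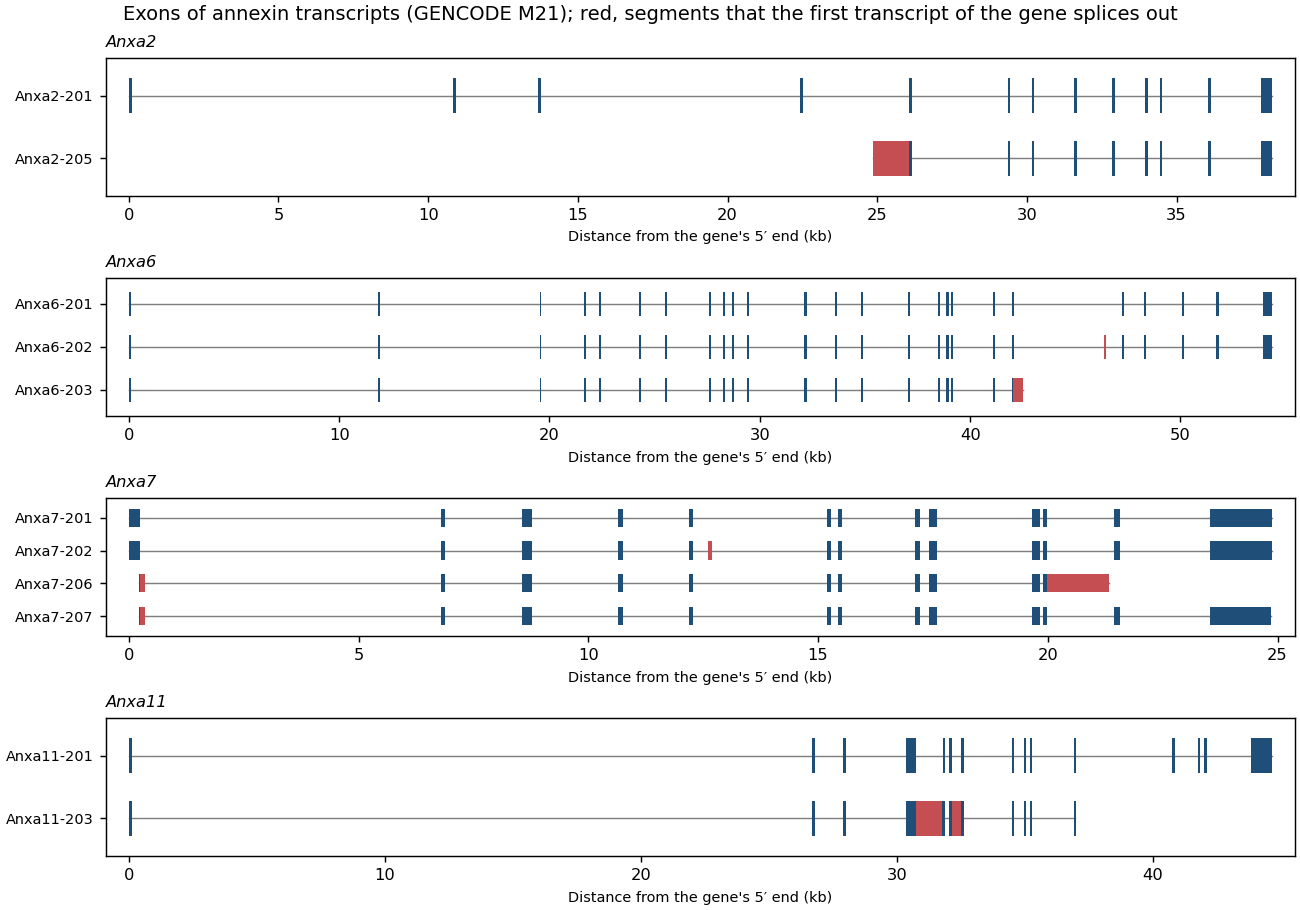
Exons (blue boxes) and introns (grey lines) of the transcripts of Anxa2, Anxa6, Anxa7 and Anxa11, drawn 5′ to 3′ against the distance in kb from the 5′ end of the gene, with red for segments that the first transcript of each gene splices out and with boxes under 0.08 kb drawn at that width. Anxa2-205 begins inside an intron, Anxa6-203 ends inside one, and Anxa7-202 holds a short exon that Anxa7-201 lacks.

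Anxa1, Anxa4 and Anxa5 kept similar mixtures, with moves of at most 7.36 points in any comparison. For Anxa4 the NMD transcript Anxa4-204 (ENSMUST00000127152) held most reads in every library, with 1200, 1588 and 1900 reads and a share of 65.3% (63.0 to 67.4), 60.5% (58.6 to 62.3) and 67.8% (66.1 to 69.5). The protein-coding Anxa4-201 had 326, 442 and 401 reads. Both stood higher in the RANKL-treated libraries, with G2 ratios of 0.90 (0.80 to 1.01) and 0.54 (0.32 to 0.75). From protein-coding transcripts alone Anxa4 was past 2-fold in G1, at 1.05 (0.90 to 1.20). For Anxa5 the coding Anxa5-201 held 72.7%, 68.6% and 66.6% of the reads, and the short retained-intron Anxa5-202 had 967, 1394 and 1240 reads, a share of 18.5% in BMM-ABs and 25.3% in mOC-ABs. By share of FPKM Anxa5-202 held 35.8%, 39.3% and 45.3%, above Anxa5-201 (39.0%) in mOC-ABs. For Anxa1 the coding Anxa1-201 had 791, 1123 and 809 reads, a share of 74.4% to 79.6%, and Anxa1-203, a processed transcript of 652 bases, had 244, 305 and 185. Anxa3 had too few reads in mOC-ABs to enter the comparison of shares.

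The genes that act with annexins were read from lists chosen by function. Of the other annexin genes Anxa9 had 173, 127 and 156 reads and ratios of -0.15 (-0.49 to 0.19), 0.09 (-0.23 to 0.41) and 0.24 (-0.11 to 0.59), and Anxa8, Anxa10 and Anxa13 were not analysed here. Of 10 binding partners and receptors 8 were listed. In G1 2 of them were higher past 2-fold and 1 lower, in G2 1 higher and 1 lower, and in G3 none, beside 10.9%, 13.2% and 10.3% of all genes in either direction. With the mRNA and lncRNA totals together the G1 count was 2, without S100a4, and with median-of-ratios size factors the G2 count was 1. S100a10, the partner of annexin A2, had 1751, 2721 and 3628 reads, with ratios of 0.94 in G1 (0.85 to 1.02) and 1.29 in G2 (1.21 to 1.37). It was thus higher in the RANKL-treated libraries, where the RPM of Anxa2 was lower. Ahnak, a giant scaffold protein bound by the annexin A2 and S100A10 complex, had 68509, 25416 and 28746 reads, with ratios of -1.13 and -1.01 in G1 and G2.

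S100a11, a partner of annexin A1, had 636, 1273 and 910 reads, highest in pOC-ABs as Anxa1 was, with a G1 ratio of 1.30 (1.16 to 1.44). S100a4, which also binds annexin A2, had 4955, 8791 and 7623 reads and a G1 ratio of 1.13 (1.08 to 1.18). The partners of annexin A11, S100a6 (2607, 1955 and 1704 reads) and Pdcd6 (436, 534 and 381 reads), stayed within 2-fold, as did Sri, the annexin A7 partner sorcin, with 364, 373 and 344 reads. The formyl peptide receptors Fpr1 and Fpr2 were not analysed here. None of the 7 genes of phosphatidylserine exposure and flipping passed 2-fold in any comparison, beside 10.9%, 13.2% and 10.3% of all genes. With the mRNA and lncRNA totals together 1 of the 7 did in G1 and 2 did in G2. That scaling shifts every gene, with a median over all genes of -0.22 in G1 and -0.15 in G2. The share of all genes past 2-fold with it is not given here, so nothing is drawn from these counts. By the mRNA total the nearest was Ano6, a calcium-activated scramblase, with 1194, 506 and 741 reads and a G1 ratio of -0.94 (-1.09 to -0.79). Almost as near in G2 was Atp11a (605, 362 and 268 reads), at -0.93 (-1.15 to -0.72). Xkr8, the caspase-activated scramblase, had 27, 17 and 12 reads and a G2 ratio of -0.93 (-2.05 to 0.10). Plscr1 went the other way, at 0.57 in G1 and 0.68 in G2. None of the 6 listed membrane repair genes passed 2-fold either, beside the same shares of all genes. At these shares such short lists would mostly hold few genes or none past 2-fold, so the counts of 0 show no particular stability. Myof, or myoferlin, had 3142, 3228 and 4407 reads and a G2 ratio of 0.73 (0.66 to 0.79).

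The genes closest in pattern were searched for Anxa3 and Anxa6, the members with the widest range, among 9873 protein-coding genes with 100 or more reads. Likeness was the Euclidean distance in the pair of log2 ratios G1 and G2, over 3 libraries. Nearest to Anxa3 were Gmfg at a distance of 0.052 (58, 46 and 9 reads), Gvin1 at 0.111 (307, 269 and 49 reads) and Paox at 0.179 (90, 65 and 15 reads). Nearest to Anxa6 were Il16 at 0.0053 (655, 336 and 271 reads), Dhrs13 at 0.0093 (60, 31 and 25 reads) and Edem2 at 0.024 (519, 271 and 214 reads). With 3 libraries a pattern is 2 numbers, and among so many genes close matches are found for common patterns, so nothing is drawn from these matches.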

How the data were processed

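For each condition 1 library was deposited, in separate tables for mRNA, lncRNA and circRNA. The deposited mRNA and lncRNA tables hold read counts and FPKM per transcript, and the circRNA table junction read counts and SRPBM, a deposited score that was not used. The submitters' processing notes name FastQC, HISAT2, StringTie and GRCm38, without versions or roles. For the 48 annexin transcripts the deposited FPKM, scaled to the mRNA total, gave the annotated lengths within 0.763 base. Transcripts were joined to GENCODE M21 by identifier, and counts were summed per gene and divided by the mRNA total. A ratio past 2-fold was counted, without a test, among genes with 20 or more reads over the libraries. Intervals are exact binomial for ratios and Wilson for shares, at 95%, and cover counting error only. All 8 members and each of their transcripts with 10% or more of the gene reads in a library were named. Members and lists were chosen with earlier results of these data known. Alternatives were other scalings (median of ratios, upper quartile, mRNA and lncRNA totals together), summed FPKM, a pseudocount of 1 read, protein-coding transcripts only, overlapping lncRNA reads and a fold limit of 1.5. The ratio script was tested on simulated data. Python 3.11.15, pandas 2.3.3, scipy 1.17.1 and BLAST 2.17.0, for near-identical copies, were used.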

Additional observations from a re-analysis of the deposited data

Results flagged for a closer look

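The lncRNA table, which the comparisons above do not use, listed features that overlap annexin loci, and those with more than 3 reads in a library are given here. NONMMUT034096.2 (chr19:20388226-20390673), at the 5′ end of Anxa1, had 89, 89 and 24 reads in the order of RANKL time. Within Anxa3 the transcript ENSMUST00000199893 (chr5:96798207-96800352) had 15, 10 and 0 reads. At the 3′ end of Anxa4 NONMMUT122603.1 (chr6:86733470-86737683) had 8, 15 and 2 reads, and at the 5′ end of Anxa11 NONMMUT020061.2 (chr14:25841434-25842484) had 13, 32 and 5. All 4 were lowest in mOC-ABs, and whether the reads belong to these features or to the annexin transcripts was not tested. With the overlapping lncRNA reads added, every annexin log2 ratio stayed within the counting interval of its reported value.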

How the results depend on the processing

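No paired analysis was possible because each condition had 1 library, and for the same reason none could be left out. In G1 the count of annexins past the limit went from 0 to 4 with protein-coding transcripts only (Anxa2, Anxa4, Anxa6 and Anxa11) and to 4 with a fold limit of 1.5 (Anxa1, Anxa4, Anxa5 and Anxa6). In G2 it went from 2 to 1 (Anxa3) with median-of-ratios size factors, the upper quartile or summed FPKM, to 3 with protein-coding transcripts only (Anxa3, Anxa6 and Anxa11) and to 4 with the lower fold limit (Anxa2, Anxa3, Anxa4 and Anxa6). In G3 it was 1, Anxa3, under each alternative run. Over all genes 13.4%, 15% and 12.6% passed 2-fold in G1, G2 and G3 from protein-coding transcripts only. Past 1.5-fold were 29.6%, 29.8% and 24.1% of all genes. Scaling to the mRNA and lncRNA totals together moved the G1 median of the annexins from 0.23 to 0.028 and that of all genes from -0.02 to -0.22, since a change of total shifts every gene by the same amount. With it 1 gene of phosphatidylserine exposure in G1 and 2 in G2 passed 2-fold, and 2 binding partners in G1 in place of 3, and with size factors 1 binding partner in G2 in place of 2. The shares of all genes past 2-fold with these scalings are not given here. Of the 24 annexin ratios, 10 stayed within their counting interval with protein-coding transcripts only, 12 with both totals, 18 with summed FPKM, 22 with the upper quartile, and 24 each with size factors, a pseudocount or lncRNA reads added. The sign changed for Anxa2 (0.49), Anxa4 (-0.21) and Anxa11 (0.17) in G3 and Anxa7 in G1 (0.25) with protein-coding transcripts only, for Anxa3 (0.05) and Anxa7 (0.03) in G1 with the upper quartile, and for Anxa3 in G1 (0.08) and Anxa4 in G3 (-0.06) with summed FPKM. As a share of FPKM, which weights short transcripts more, Anxa1-203 made up 41.4% in BMM-ABs in place of 23.0%, Anxa5-202 45.3% in mOC-ABs in place of 25.3%, and Anxa2-205 38.4% in pOC-ABs in place of 50.0%. Depth limits Anxa3 in mOC-ABs (71 reads) and Anxa11 most.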

Other observations

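Anxa4-202 (ENSMUST00000113675), a protein-coding transcript singled out after its values were seen, had 1 read each with BMM-ABs and pOC-ABs and 67 reads with mOC-ABs, where it made up 2.39% of the Anxa4 reads (1.89 to 3.03). Its log2 ratio in G2 was 6.31, with a counting interval of 3.78 to 11.6 that rests on the single read in BMM-ABs. None of the 1372 circRNA junctions named an annexin of the 8 as host or overlapped one.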
